A study of Medicago truncatula with 6 samples.

Results

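The regions described here are proximal promoters of Medicago truncatula genes that carried small RNA counts while the gene next to them carried almost none. Medicago truncatula is a model legume. A promoter was included when the interval of 1 kb annotated as the promoter of a gene reached a mean of at least 5 CPM (counts scaled to a common library total) over the 3 GUS RNAi libraries and the gene itself stayed under a mean of 1 CPM in the same libraries. The rule took in 2169 of the 50991 promoters of 1 kb annotated for nuclear genes, or 4.25% of them, in tables of 400216 features. It took in 66.0% of the 3286 promoters at 5 CPM or more, and the other 1117 belonged to genes at 1 CPM or more and serve as the comparison. Each promoter is called by the ID of its gene. "Quiet" says only that the gene held few small RNA counts, since transcripts were not measured.

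Small RNAs were sequenced from roots of 2 groups of 3 libraries, GUS RNAi and SKI3 RNAi. All 6 libraries carry the genotype label WT and the treatment label mock, and age is not given in the labels. RNAi against GUS, a reporter enzyme from bacteria, is the usual control for RNAi in plants. SKI3 RNAi targets SKI3, a subunit of the SKI complex, which feeds RNA to the cytoplasmic exosome for degradation, and the series asks about its part in root nodulation. The labels do not say whether the 3 libraries of a group came from separate plants, so every p-value measures only the spread between these libraries, which may be technical.

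Plant small RNAs are cut from double-stranded or hairpin RNA by Dicer-like enzymes and loaded into Argonaute proteins. Those of the microRNA and secondary siRNA classes guide the cleavage or block the translation of matching RNAs, and siRNAs made from transposable elements and promoters can guide DNA methylation and transcriptional silencing of the locus. A promoter interval also often overlaps other annotated features, such as a neighbouring gene on the other strand or an inserted transposable element. A header line left in the table of SKI3 RNAi replicate 3 names reads of 21 to 22 nt, and the counts are taken to be of that size class in all libraries, which the other tables do not state.

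Total counts ran from 2168297 to 3974092 per library. Depending on the library, 3 counts, taken as the floor, amounted to 0.755 to 1.38 CPM, and the limit of 5 CPM to 10.8 to 19.9 counts. The counts carry no gene symbols, so the targeted gene and marker genes of the root were not analysed here. In whole roots, fewer cells of a type and fewer small RNAs per cell cannot be told apart.

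Most of these promoters lay close above the limit. In GUS RNAi, 1371 of them were at 5 to 10 CPM, 545 at 10 to 20 CPM, 235 at 20 to 100 CPM and 18 at 100 CPM or more. The median promoter level was 8.19 CPM in GUS RNAi, with a range from 5.001 to 2591 CPM. The median of the quiet genes was 0.154 CPM, and 766 of them had 0 counts in all 3 GUS RNAi libraries. In all 6 libraries together 514 genes had 0 counts. These values chose the promoters and are given as a description.

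Just inside the promoter limit lay MtrunA17Chr1g0163111, at 5.001 CPM, with 18, 14 and 14 counts in the GUS RNAi libraries, then 16, 9 and 14 in those of SKI3 RNAi. MtrunA17Chr6g0475651 was also at 5.001 CPM. Just outside lay MtrunA17Chr1g0173901 at 4.999 CPM and MtrunA17Chr2g0310711 at 4.998 CPM, the latter with 15 counts in each GUS RNAi library. At the limit for the gene, the genes of MtrunA17Chr1g0150181 and MtrunA17Chr8g0387431 were both at 0.9997 CPM. Those of MtrunA17Chr2g0279641 and MtrunA17Chr5g0412781 were both just outside at 1.011 CPM. Promoters within a few counts of either limit differ from those outside it by less than their spread between libraries.

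The SKI3 RNAi libraries were not used by the rule. There, 2014 of the 2169 promoters (92.9%) were again at 5 CPM or more, 155 were under it, and 1833 (84.5%) met both limits. The median promoter level in SKI3 RNAi was 9.34 CPM, with a range from 1.59 to 2440 CPM. The gene was at 1 CPM or more for 196 promoters, and the highest of these genes, MtrunA17Chr1g0207531, reached a mean of 3.85 CPM. In single libraries the limit was met less often, with 1564 promoters at 5 CPM or more in each GUS RNAi library and 1304 in each of the 6 libraries.

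**Figure D1:**
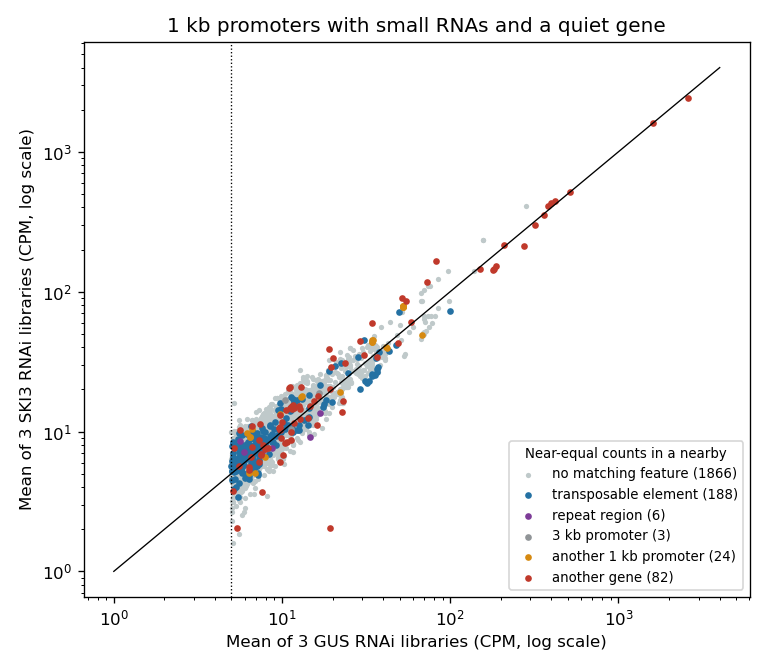
Mean level of each of the 2169 promoters in 3 GUS RNAi libraries (x axis, CPM, log scale) and 3 SKI3 RNAi libraries (y axis, CPM, log scale); the solid line marks equal levels, the dotted line the limit of 5 CPM, and colour the nearby feature with near-equal counts. The promoters lie along the line, and most of those above 100 CPM are coloured as sharing their counts with another gene.

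The promoters held 3.24%, 3.58% and 3.35% of all counts in the 3 GUS RNAi libraries and 3.77%, 3.65% and 3.51% in the 3 SKI3 RNAi libraries. The means were 3.39% ± 0.173 and 3.64% ± 0.126 (SD, n = 3), a difference of 0.255 percentage points, and 1 GUS RNAi library lay above the lowest SKI3 RNAi library. Library totals taken without the 10 most counted features gave a difference of 0.0577 percentage points. The counts were uneven between promoters. The 2 most counted promoters held 12.4% of the summed CPM for GUS RNAi and 11.1% for SKI3 RNAi.

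The promoters were spread over all 8 chromosomes. They made up from 3.54% of the 1 kb promoters on chromosome 6 to 4.83% on chromosome 5, and 9 were on unplaced sequence.

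The 3 kb promoter of a gene mostly held fewer counts than its 1 kb promoter. The table lists a 3 kb promoter for 2159 of the genes, and its counts do not include those of the 1 kb promoter. The 3 kb promoter had a median of 1.31 CPM in GUS RNAi and held less than the 1 kb promoter for 1954 genes (90.5%). It reached 5 CPM for 450 genes (20.8%) and was under 1 CPM for 973 (45.1%). For the comparison promoters, whose genes were not quiet, the median was 1.60 CPM, with 24.6% at 5 CPM or more and 39.9% under 1 CPM. No test was made of these shares, because the lists were cut on the same libraries. Both lists required at least 5 CPM in the 1 kb promoter and set no limit on the 3 kb promoter. The lower level of the 3 kb promoter is therefore largely set by the choice.

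The table lists its features in chromosome order, as the numbering of 220428 transposable element fragments shows with 0 out of order, so features a few rows apart are neighbours. A neighbouring feature was taken to hold the same reads when it stood within 10 rows and the count differences, summed over the 6 libraries, were at most 10% of the promoter's counts. This definition was chosen after the values were seen. By it, 82 promoters (3.78%) matched another gene, 188 matched a transposable element and no gene, 24 another 1 kb promoter, 6 a repeat region and 3 a 3 kb promoter. The other 1866 (86.0%) matched none. Among the 1117 comparison promoters the shares were 3.85% for genes, 7.97% for transposable elements and 86.4% for no match, so these shares lay close together in the 2 lists.

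Of the 82 promoters that matched another gene, 58 stood in the row next to it and 78 within 3 rows. The 6 counts were identical in 32 of these pairs, and 17 promoters matched 2 or more genes. These 82 promoters held 26.3% of the counts of the whole list in GUS RNAi and 24.6% in SKI3 RNAi. The share of a library they held was 0.892% ± 0.154 for GUS RNAi and 0.896% ± 0.0406 for SKI3 RNAi (SD, n = 3), which lay well inside the spread.

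Matches to a gene were concentrated at the highest levels. At 100 CPM or more, 14 of the 18 promoters (77.8%) matched another gene, against 14 of 235 at 20 to 100 CPM, 28 of 545 at 10 to 20 CPM and 26 of 1371 at 5 to 10 CPM. Of the comparison promoters, 2 of the 7 at 100 CPM or more matched a gene. These counts are a description, since the levels that form the classes come from the libraries that chose the promoters.

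**Figure D2:**
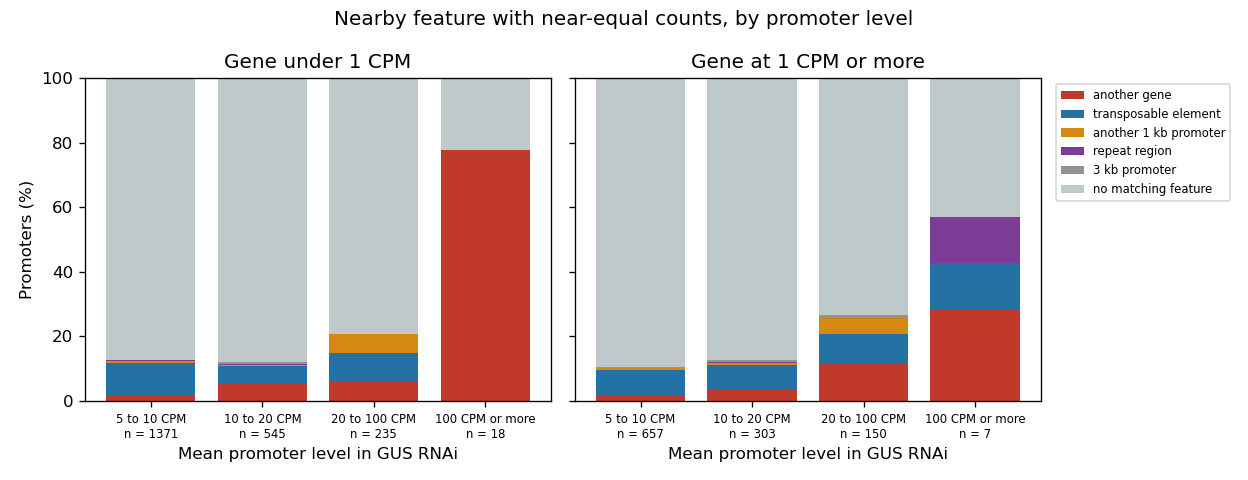
Share of promoters (y axis, %) by the kind of nearby feature with near-equal counts, in 4 classes of mean GUS RNAi level (x axis, CPM), for promoters of quiet genes (left, n = 1371, 545, 235 and 18) and for promoters whose gene was at 1 CPM or more (right, n = 657, 303, 150 and 7). Another gene takes 77.8% of the highest class on the left and 28.6% on the right.

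Of the 188 promoters that matched a transposable element, 97 matched an element with terminal inverted repeats, the cut-and-paste DNA transposons. A further 43 matched a helitron, a rolling-circle DNA transposon, and 37 an LTR retrotransposon. Another 9 matched a TRIM element, a short relative of LTR retrotransposons that codes for no protein, and 2 a non-LTR retrotransposon. Elements with terminal inverted repeats were thus 51.6% of the matches and 43.9% of the element fragments in the table. Of the 89 comparison promoters that matched an element, 34 matched one with terminal inverted repeats, 31 an LTR retrotransposon and 22 a helitron. These shares were not tested.

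The 6 promoters with the highest level in GUS RNAi all matched another gene. MtrunA17Chr8g0384971 had 7125, 6162 and 10938 counts in the GUS RNAi libraries, then 6318, 5832 and 6779 in those of SKI3 RNAi, while its own gene had 1 count in all. The neighbouring gene MtrunA17Chr8g0384981 had the same 6 counts, and the counts of MtrunA17Chr8g0384972 and MtrunA17Chr8g0384982 added up to them in 5 libraries and to 1 count more in the other. Its mean level was 2591 ± 707 CPM for the GUS RNAi libraries and 2440 ± 199 CPM for those of SKI3 RNAi (SD, n = 3). The groups overlapped, and the lowest and the highest library were both GUS RNAi.

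MtrunA17Chr8g0346191 had 4447, 3758 and 6734 counts in the GUS RNAi libraries, then 4527, 3502 and 4430 in those of SKI3 RNAi. The genes MtrunA17Chr8g0346192 and MtrunA17Chr8g0346201 differed from it by 1 count in 1 library. Its means were 1595 ± 424 and 1597 ± 94.9 CPM, with overlapping groups. MtrunA17Chr4g0064261 had 1661, 1241 and 1911 counts in the GUS RNAi libraries, then 1696, 985 and 1377 in those of SKI3 RNAi, the same as in genes MtrunA17Chr4g0064242 and MtrunA17Chr4g0064251. Its means of 513 ± 83.0 and 515 ± 86.1 CPM were also within the spread.

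MtrunA17Chr2g0277931 and MtrunA17Chr7g0253581, on different chromosomes, had counts close to each other. The first had 1126, 976 and 1845 counts in the GUS RNAi libraries, then 1027, 1305 and 1060 in those of SKI3 RNAi. The second had 973, 901 and 1689 and then 937, 1210 and 967. Both were highest in GUS RNAi replicate 3 by counts and lowest in GUS RNAi replicate 1 by CPM, and each matched a pair of neighbouring genes. MtrunA17Chr7g0272121 had 1887, 733 and 1336 counts in the GUS RNAi libraries, then 1118, 964 and 1264 in those of SKI3 RNAi, and matched 3 genes. For these 6 promoters the log2 fold change of SKI3 RNAi over GUS RNAi lay between -0.18 and 0.01, and the adjusted p of edgeR's quasi-likelihood test between 0.882 and 0.997. For all 6 the sign turned when at least 1 library was left out.

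The 4 promoters at 100 CPM or more without a match were named after their values were seen. MtrunA17Chr1g0173951 had 1388, 566 and 836 counts in the GUS RNAi libraries, then 1428, 837 and 940 in those of SKI3 RNAi. The most counted feature within 10 rows of it, its own 3 kb promoter, held 55 counts in all, 0.917% of its 5995. Its means were 283 ± 58.0 and 407 ± 81.3 CPM (SD, n = 3), with a log2 fold change of 0.42 (SE 0.211) and an adjusted p of 0.797 by the quasi-likelihood test. No feature within 10 rows of it accounted for its counts.

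MtrunA17Chr7g0221931 and MtrunA17Chr1g0163731 had almost the same counts on different chromosomes. The first had 653, 384 and 457 counts in the GUS RNAi libraries, then 801, 526 and 512 in those of SKI3 RNAi, and the second 652, 385 and 455 and then 800, 527 and 512. Their means were 157 CPM for GUS RNAi and 234 CPM for SKI3 RNAi, with a log2 fold change of 0.48 and an adjusted p of 0.743. MtrunA17Chr2g0307571 had 599, 266 and 504 counts in the GUS RNAi libraries, then 482, 293 and 335 in those of SKI3 RNAi, with means of 139 ± 14.7 and 141 ± 24.2 CPM.

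Of the 2169 promoters, 2165 passed the filter on low counts and were tested between SKI3 RNAi and GUS RNAi, and 2 of these reached the filter's cutoff of 3.66 CPM in no SKI3 RNAi library. The promoters were chosen on GUS RNAi levels, so the counts below are a description. None passed an adjusted p of 0.05 in edgeR's quasi-likelihood test, and the background was 0% of all 48283 features tested. DESeq2 also called 0. At an unadjusted p under 0.05, 73 were higher in SKI3 RNAi, against 3.58% of all features tested, and 67 were lower, against 2.99%. The promoters' own shares were 3.37% and 3.09%, close to that background. Scaled by total counts alone, the split was 112 higher (5.17%) and 35 lower (1.62%), against 5.3% and 1.74% of all features, and the median of all features tested then moved from 0.02 to 0.12 on the log2 scale. DESeq2 gave 28 higher and 20 lower at an unadjusted p, against 1.01% and 1.37% of all features.

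With CPM scaled further by edgeR's TMM factors, all SKI3 RNAi libraries lay above all GUS RNAi libraries for 169 promoters (7.81%), against 7.35% of all features, and below them for 112 (5.17%), against 5.6%. In CPM on total counts, they were 224 (10.3%), against 10.5%, and 75 (3.46%), against 3.6%. The median log2 fold change of the tested promoters was 0.03, beside 0.02 over all features tested. Past 2-fold in the fitted change were 2 promoters that were higher, against 1.26% of all features, and 9 that were lower, against 0.708%. Over all 5273 tested 1 kb promoters, the list included, the median was 0.081, and over the comparison promoters 0.0011. Of the 5273, 4.53% were higher and 2.33% lower at an unadjusted p under 0.05 in the quasi-likelihood test. By TMM-scaled CPM, 9.31% lay higher without overlap and 4.27% lower. Only the list and the comparison promoters had to reach 5 CPM in GUS RNAi, so differences from the 5273 can arise by construction.

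The promoters with the smallest p among those higher in SKI3 RNAi were named by rule. MtrunA17Chr5g0430421 had 271, 198 and 305 counts in the GUS RNAi libraries, then 552, 387 and 364 in those of SKI3 RNAi. Its means were 82.3 ± 12.4 and 166 ± 27.1 CPM (SD, n = 3), and every SKI3 RNAi library lay above every GUS RNAi library. The neighbouring gene MtrunA17Chr5g0430411 held nearly the same counts, at 269, 198, 304, 549, 384 and 361. The log2 fold change was 0.92 (SE 0.190), with an adjusted p of 0.743 by the quasi-likelihood test.

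MtrunA17Chr2g1006054 had 55, 30 and 37 counts in the GUS RNAi libraries, then 91, 67 and 57 in those of SKI3 RNAi, and its own gene had 0 counts in all 6 libraries. Its means were 12.8 ± 1.86 and 27.5 ± 5.17 CPM, it matched no nearby feature, and its log2 fold change was 1.01. MtrunA17Chr7g0261591 and MtrunA17Chr7g0265541 were near copies of each other in counts. The first had 45, 26 and 35 counts in the GUS RNAi libraries, then 65, 50 and 47 in those of SKI3 RNAi, and the second 43, 26 and 36 and then 64, 50 and 46. The neighbouring genes MtrunA17Chr7g0261601 and MtrunA17Chr7g0265531 matched them, each with 43, 25, 35, 64, 48 and 46 counts. Both promoters also stood beside a fragment of the same TRIM element, and both fragments held 47, 36, 30, 31, 36 and 27 counts, without the higher counts in SKI3 RNAi. The adjusted p was 0.743 for these 3 promoters too, and their groups did not overlap.

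Of the 4 promoters with the smallest p among those lower in SKI3 RNAi, MtrunA17Chr6g0483031 had the highest level, with 1118, 605 and 913 counts in the GUS RNAi libraries, then 571, 525 and 540 in those of SKI3 RNAi. Its means were 274 ± 10.6 and 211 ± 13.3 CPM, with a log2 fold change of -0.47 (SE 0.158), and it matched the genes MtrunA17Chr6g0483021 and MtrunA17Chr6g0483022. MtrunA17Chr6g0482981, on the same chromosome, had 35, 20 and 30 counts and then 20, 12 and 9. MtrunA17Chr1g0161411 had 23, 28 and 20 counts in the GUS RNAi libraries, then 9, 7 and 11 in those of SKI3 RNAi, and MtrunA17Chr2g0279001 had 74, 44 and 46 and then 36, 28 and 19. Their log2 fold changes were -0.85, -1.24 and -0.79. In none of the 4 did the groups of libraries overlap, and all 4 had an adjusted p of 0.743 by the quasi-likelihood test.

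**Figure D3:**
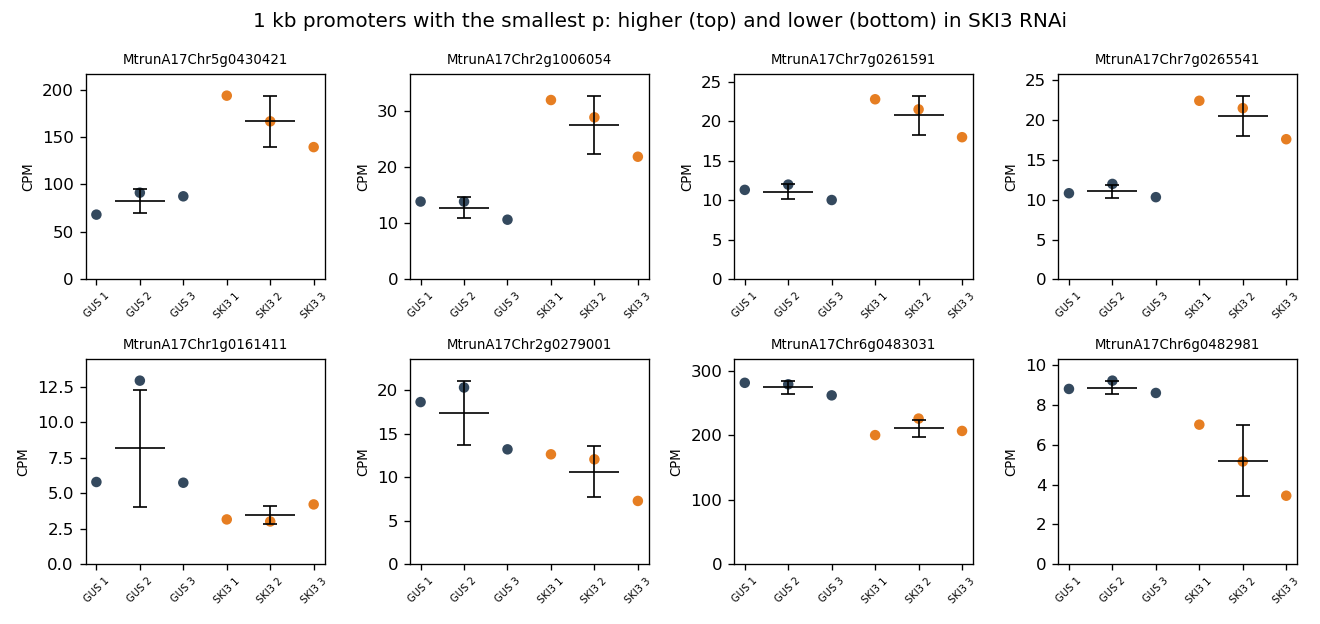
Level (y axis, CPM, from 0) in each of the 6 libraries (x axis) of the 4 promoters with the smallest p among those higher in SKI3 RNAi (top) and of the 4 among those lower (bottom); points are libraries, horizontal lines group means and bars the SD of 3 libraries. In each panel the 3 libraries of one group lie apart from those of the other, and all 8 promoters had an adjusted p of 0.743.

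Variation between libraries of a group was moderate for most promoters. The coefficient of variation, the SD as a share of the mean, had a median of 19.99% in GUS RNAi and 23.3% in SKI3 RNAi, and was over 50% for 94 and 190 promoters. The largest within GUS RNAi came from replicate 1. MtrunA17Chr8g0369521 had 222, 2 and 4 counts in the GUS RNAi libraries, then 5, 3 and 8 in those of SKI3 RNAi, the same as the gene MtrunA17Chr8g0369531, and it was among the 4 promoters not tested. The other GUS RNAi libraries were at 0.922 and 1.15 CPM. MtrunA17Chr2g0310241 had 67, 8 and 11 counts and then 17, 16 and 18, and MtrunA17Chr5g0407841 had 62, 8 and 12 and then 12, 6 and 11.

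The largest variation within SKI3 RNAi lay between replicate 1, which held counts, and replicates 2 and 3, which held 0. MtrunA17Chr5g0444061 had 118, 56 and 115 counts in the GUS RNAi libraries, then 225, 0 and 0 in those of SKI3 RNAi. MtrunA17Chr2g0303741 had 30, 16 and 31 and then 62, 0 and 0, and MtrunA17Chr3g0077501 had 23, 11 and 24 and then 45, 0 and 0. A count of 0 allows up to 1.29 CPM in SKI3 RNAi replicate 2 and 1.15 CPM in replicate 3. The counts of these 3 promoters stood close to the ratio 2:1:2:4:0:0 across the 6 libraries.

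That ratio recurred. With every library's share within 0.03 of it and at least 100 counts, 32 promoters (1.48%) followed it, against 8 of the comparison promoters (0.716%) and 231 features in the whole table. They lay on 8 chromosomes, and none matched a nearby feature. The most counted were MtrunA17Chr3g0091491, with 327, 166, 334, 643, 5 and 4 counts, and MtrunA17Chr4g0014551, with 287, 144, 287, 567, 0 and 2. The counts did not follow the library totals, which were higher in GUS RNAi replicates 1 and 3 than in SKI3 RNAi replicate 1.

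The calls changed when SKI3 RNAi replicate 1 was left out of the fit. Without that library, 45 of 2167 tested promoters passed an adjusted p of 0.05 in the quasi-likelihood test (2.08%), against 0.973% of all features, and all 45 were lower in SKI3 RNAi. Of the 45, 32 had the ratio, and 33 had at most 3 counts in each of the other SKI3 RNAi libraries. At least these 33 thus passed the filter on low counts only through GUS RNAi. The list itself was chosen on GUS RNAi levels, which favours promoters that are lower in SKI3 RNAi. Neither the direction nor the share of the 45 is therefore read as a result. With the library in, none passed. Why SKI3 RNAi replicate 1 and the other SKI3 RNAi libraries differ at these promoters was not tested.

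A second ratio, 4:2:0:4:4:1, was found by the same rule after the values were seen. It held for 32 of the 2169 promoters (1.48%), on 7 chromosomes, and for 350 features in the whole table. It also held for 20 of the 1117 comparison promoters, a share no lower than that of the list. Of the 32, 30 matched no nearby feature and 31 were at under 10% of the mean of the other 5 libraries in GUS RNAi replicate 3. MtrunA17Chr2g0323481 had 86, 45 and 0 counts in the GUS RNAi libraries, then 86, 86 and 21 in those of SKI3 RNAi. MtrunA17Chr8g0334881 had 111, 61 and 3 and then 111, 111 and 28. Equal counts in 3 libraries whose totals were 3974092, 2851473 and 2324061 mean that CPM values of these promoters differ where the counts do not. How reads with several alignments were counted is not given in the sources used here.

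Many promoters had near-equal counts at distant loci. Of the 346 promoters with at least 300 counts over the 6 libraries, 265 (76.6%) had a promoter of the list on another chromosome whose summed count difference was at most 10%. Among the 215 comparison promoters of that depth, measured against their own, shorter list, it was 128 (59.5%). Groups were then formed by taking the promoter with the most near-equal partners, setting it aside with them and repeating, which left out promoters whose partners were already taken. This gave 57 groups of 251 promoters, and 55 groups spanned several chromosomes. Whether such promoters share reads was not tested, and at a tolerance of 5% in place of 10% the 265 became 103.

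The 17 groups of 5 or more held 151 promoters, of which 16 matched a transposable element and 3 a gene. The 3 largest had 14 promoters each. The group of MtrunA17Chr1g0203781 spanned 9 chromosome names, unplaced sequence included, with a mean of 36.7 ± 1.96 CPM for GUS RNAi and 37.02 ± 6.85 for SKI3 RNAi (SD of library means, n = 3). The group of MtrunA17Chr7g0267191, on 7 chromosomes, was at 17.22, 18.09 and 16.29 CPM in the GUS RNAi libraries, then 22.02, 21.02 and 19.83 in those of SKI3 RNAi, without overlap. The adjusted p of its members in the quasi-likelihood test ran from 0.833 to 0.989.

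The group of MtrunA17Chr4g0000821 had 6 promoters on 2 chromosomes, each with the counts of another promoter beside it. It was at 52.6 ± 8.02 CPM for GUS RNAi and 78.3 ± 14.8 for SKI3 RNAi (SD, n = 3), also without overlap. The 17 groups are too few to be compared with shares of all features. Of them, 2 were thus higher without overlap, against 10.5% of all features in CPM on total counts. Lower in SKI3 RNAi without overlap were 2 groups, against 3.6% of all features. The group of MtrunA17Chr3g0112701, with 11 promoters on 6 chromosomes, was at 35.4, 34.5 and 33.7 CPM and then 26.5, 19.6 and 31.1. Of these 11 promoters, 9 matched a transposable element, 4 of them LTR retrotransposons, 3 helitrons and 2 elements with terminal inverted repeats. The group of MtrunA17Chr5g0423731, with 7 promoters on 4 chromosomes, was at 71.8 ± 1.65 CPM for GUS RNAi and 52.7 ± 12.1 for SKI3 RNAi, and its members had log2 fold changes from -0.58 to -0.47.

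The other 13 groups of this size overlapped between GUS RNAi and SKI3 RNAi. In the group of MtrunA17Chr1g0162381, all 6 promoters had the ratio 2:1:2:4:0:0, and the group stood at 63.0 CPM in SKI3 RNAi replicate 1 and at 0.574 and 0.957 CPM in the other SKI3 RNAi libraries. The group of MtrunA17Chr5g0438491 stood at 0.918 CPM in GUS RNAi replicate 3 and between 8.65 and 34.7 CPM elsewhere. Members of a group are not replicates, and the groups were formed from the same counts, so no test was made of them.

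**Figure D4:**
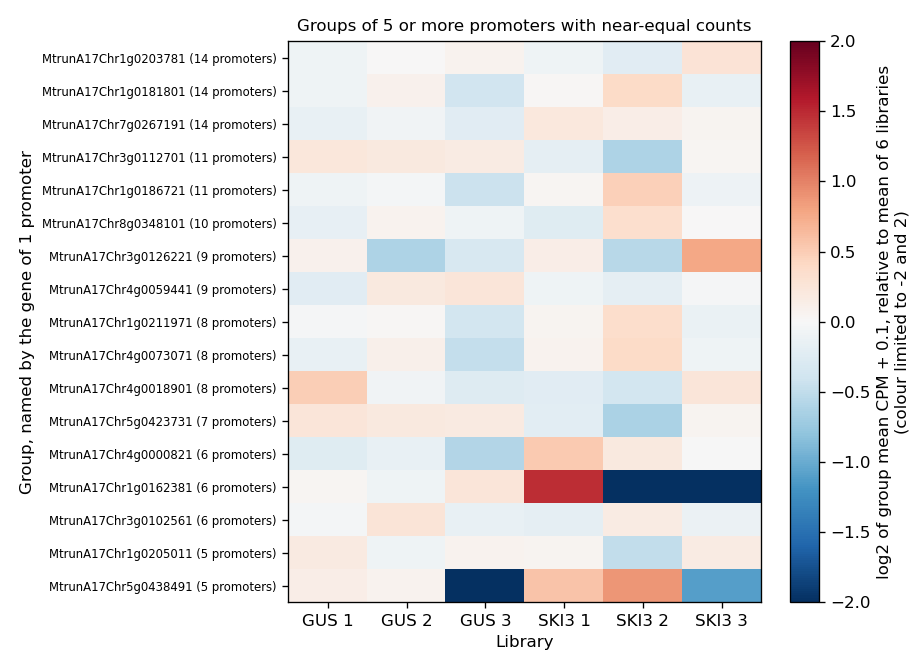
Level of the 17 groups of 5 or more promoters with near-equal counts (rows, named by the gene of 1 promoter) in the 6 libraries (columns); colour is log2 of the group's mean CPM plus 0.1 relative to its mean over the libraries, limited to -2 and 2. The group of MtrunA17Chr1g0162381 is low in SKI3 RNAi replicates 2 and 3 and that of MtrunA17Chr5g0438491 in GUS RNAi replicate 3, while the other groups vary less between libraries.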

How the data were processed

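For every library the authors deposited a table of counts per feature, as whole numbers without normalization, per the file headers and their values. Small RNA libraries were made from total RNA by adaptor ligation and PCR, per the labels' protocols, which mention no molecular identifiers, so floors cover counting error only. The submitters' processing notes name cutadapt 2.10, Bowtie 1.3.1 and DESeq2 1.34.0. The genome build, the use of strand and the counting of reads with several alignments are not given in the sources used here, so reads of overlapping features and of either strand cannot be told apart. A stray header row in 1 table was dropped, and groups and replicate numbers came from the titles.

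CPM is a count relative to its library's total. Counts of all features were tested with edgeR 4.0.16 in R 4.3.3 (TMM scaling, filterByExpr at a minimum count of 10, quasi-likelihood test with group as the only term), and p-values were adjusted over all 48283 features by the Benjamini-Hochberg method. DESeq2 1.42.0, other scalings, filters and selections, and leaving out each library were alternatives. The members and lists were chosen with earlier results of these data known. The rule for named promoters took the 6 highest in GUS RNAi, all past an adjusted p of 0.05 (none), the 4 smallest p in each direction, the 3 largest coefficients of variation in each group, and 2 on each side of each limit. None of the members' gene IDs matched the RefSeq gene table, so no symbols or sequences are given.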

Additional observations from a re-analysis of the deposited data

How the results depend on the processing

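With a limit of 3 CPM the list held 3788 promoters, with 10 CPM 798, and with both limits required in every GUS RNAi library 1393; leaving out each GUS RNAi library gave 2076 to 2277. Chosen on SKI3 RNAi, 2387 promoters met the limits, of which 1833 were shared (84.5% of the GUS RNAi list and 76.8% of the other). The difference in the share of counts moved to 0.0577 percentage points when the total left out the 10 most counted features, and lay between 0.180 and 0.350 without each library in turn. No filter on low counts gave 2 promoters past an adjusted p of 0.05 in edgeR's quasi-likelihood test, MtrunA17Chr1g0183301 and MtrunA17Chr8g0369521. The share of all features called in that fit is not given here. Leaving out each library gave 0 to 45, with 45 without SKI3 RNAi replicate 1 (2.08%, against 0.973% of all features).

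At an unadjusted p, the higher promoters numbered 112 under total counts alone (5.17%, against 5.3% of all features) and 28 in DESeq2 (1.29%, against 1.01%). They numbered 36 to 86 without each library, and the lowest values, 36 and 38, came without GUS RNAi replicates 2 and 3. The lower ones numbered 35 under total counts (1.62%, against 1.74% of all features), 20 in DESeq2 (0.924%, against 1.37%) and 112 with no filter. They numbered 39 to 125 without each library. The 39 came without GUS RNAi replicate 3 or SKI3 RNAi replicate 2, and 104 and 125 when replicate 1 or 3 of SKI3 RNAi was left out. Shares of all features at an unadjusted p are not given here without each library or with no filter. Those counts are thus not read as a result about the promoters. The median log2 fold change was 0.13 under total counts, -0.048 with no filter and -0.0085 with a minimum of 1 CPM. Over all features tested it was 0.12, 0.070 and 0.0098 in the same order. Without each library the promoters' median was 0.0043 to 0.039. It was 0.15 for promoters chosen on SKI3 RNAi and 0.088 for those chosen on all 6 libraries, where a floor on SKI3 RNAi levels raises it by construction. Promoters without overlap numbered 251 to 378 (higher) and 187 to 292 (lower) without each library, where fewer libraries make it more frequent by construction. The matching shares of all features are not given here either.

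Matches to a transposable element numbered 125 at a tolerance of 0.05 and 339 at 0.2, and near-equal counts on another chromosome 103 at 0.05. Apart from these construction effects, the cause of these changes was not tested.

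Only promoters named by rule for level, smallest p or variation were followed through the settings. Of the 19 of these with a fit, 9 kept their direction under every setting. Among them was MtrunA17Chr5g0407841, which ran from -1.56 to -0.046 without each library, the latter without GUS RNAi replicate 1. The rest of the 9 were those named for the smallest p in each direction in these same libraries. Their kept direction thus follows largely from that choice. The 6 most abundant changed sign without single libraries, over ranges of -0.40 to 0.013 (MtrunA17Chr8g0384971), -0.30 to 0.10 (MtrunA17Chr8g0346191), -0.22 to 0.064 (MtrunA17Chr4g0064261), -0.27 to 0.20 (MtrunA17Chr2g0277931), -0.16 to 0.15 (MtrunA17Chr7g0272121) and -0.27 to 0.23 (MtrunA17Chr7g0253581). Under total counts MtrunA17Chr8g0346191 was at 0.0022, MtrunA17Chr4g0064261 at 0.0076, MtrunA17Chr2g0277931 at 0.072 and MtrunA17Chr7g0253581 at 0.091. MtrunA17Chr7g0272121 was at -0.064 with no filter and at -0.023 with a minimum of 1 CPM. MtrunA17Chr2g0310241 ran from -0.84 to 0.84 without each library. The 3 promoters at 0 in SKI3 RNAi replicates 2 and 3 ran from -7.17 to 0.34 (MtrunA17Chr3g0077501), -9.47 to 0.32 (MtrunA17Chr5g0444061) and -7.58 to 0.38 (MtrunA17Chr2g0303741). Their lowest values were fitted against libraries at 0 and depend on the prior count.

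Same-numbered libraries were not shown to be paired: their deviations correlated at 0.071, 0.194 and 0.250, and every library correlated best with its own number, as a hint from the data. The fit with the replicate number as a block called 0 promoters past an adjusted p, 95 higher and 80 lower at an unadjusted p, and put MtrunA17Chr7g0253581 at 0.025. The shares of all features in the block fit are not given here. At 2168297 to 3974092 counts per library, promoters near 5 CPM rest on about 11 to 20 counts each, which limits what the test can detect.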
